A study of Mus musculus with 11 samples.

Results

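The genes described here are 5 of the 55401 rows of the deposited table: Mamdc2, Fzd9, Serpine2, St8sia6 and Tcirg1. They were picked by symbol because their mean in mice that lack Tyrobp and carry 1 inactive Inpp5d allele lay above their mean in mice that lack Tyrobp alone. The values of those 2 groups therefore chose the genes, and the difference between them is given as a description without a test. The rule by itself is a weak filter: of the 20390 genes that passed the filter on low counts, 51.1% had a higher mean in the compound mutant than in the Tyrobp single mutant, and 19.4% had a compound mean that also lay below the NLGF mean. Among the 2355 genes whose Tyrobp single mutant mean was at most 0.5 of the NLGF mean, 81.1% had a higher compound mean. All 5 genes passed the filter on low counts.

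All mice carried the NLGF alleles, a knock-in of mutated App with amyloid plaques. Their background was C57BL/6 and their age 9 to 10 months. The 4 groups were Tyrobp-/-;Inpp5d+/-;NLGF (n = 3, called the compound mutant below), Tyrobp-/-;NLGF (n = 2, the Tyrobp single mutant), Inpp5d+/-;NLGF (n = 3, the Inpp5d single mutant) and NLGF (n = 3). Live cells positive for CD11b and CD45 were sorted from brain as microglia, and each of the 11 libraries holds a full-length cDNA readout of their RNA. The labels do not say whether the libraries of a group came from separate litters or sorts, and p-values cover only the variation among these libraries, which may be technical. The title numbers of the Tyrobp-/- libraries form a range of their own, so handling and Tyrobp genotype cannot be told apart. Levels are given as CPM, read counts set to a common library total with TMM scaling, and in these bulk samples fewer cells of a type cannot be told apart from less RNA per cell.

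Tyrobp encodes DAP12, the adaptor that carries the signal of the receptor TREM2, and Inpp5d encodes SHIP1, a phosphatase that removes a phosphate from the lipid messenger made by PI3 kinase and so restrains such signalling. Microglia that meet amyloid plaques take on a disease-associated (DAM) state in a TREM2-dependent way, with high transcripts of secreted, lysosomal and lipid-handling proteins. The 5 genes belong to different parts of cell biology. Mamdc2 encodes a secreted matrix protein with MAM domains, Serpine2 a secreted protease inhibitor, Fzd9 a Wnt receptor of the Frizzled family, St8sia6 a Golgi enzyme that adds sialic acid to glycans, and Tcirg1 a membrane subunit of the proton pump that acidifies lysosomes.

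The targeted genes followed their labels for Tyrobp. Tyrobp averaged 5.16 ± 2.81 CPM in the compound mutant and 7.98 ± 1.37 in the Tyrobp single mutant, against 2145 ± 179 in the Inpp5d single mutant and 2194 ± 318 in NLGF (SD). Inpp5d averaged 236 ± 40.4 CPM in the compound mutant, 448 ± 1.26 in the Tyrobp single mutant, 230 ± 45.6 in the Inpp5d single mutant and 318 ± 116 in NLGF, so that the Inpp5d+/- libraries overlapped those of NLGF but not those of the Tyrobp single mutant. The NLGF libraries had 436, 205 and 313 CPM of Inpp5d in replicates 1, 2 and 3. Inpp5d did not pass in the Inpp5d single mutant against NLGF (log2 fold change -0.47, edgeR adjusted p = 0.952). Library totals ran from 29490567 to 66637052 counts. None of the tested neutrophil, monocyte and neuron markers described next passed in edgeR between the compound mutant and either Tyrobp+ group. The 12 microglia markers all had counts in every library, and their summed level was 51640 to 55030 CPM in the compound mutant, 54120 and 54550 in the Tyrobp single mutant, 48400 to 50560 in the Inpp5d single mutant and 49070 to 58760 in NLGF. Of these 12, 1 was called higher in the compound mutant against each Tyrobp+ group and none lower.

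Markers of other cells were uneven among the libraries in which the genes were compared. The summed level of 14 neutrophil markers was 493, 10240 and 2660 CPM in compound replicates 1, 2 and 3 and 19560 and 4737 in Tyrobp single mutant replicates 1 and 2, against 373 to 571 in the Inpp5d single mutant and 364 to 479 in NLGF. The 12 monocyte markers summed to 128 to 1158 CPM in the compound mutant and 524 and 2170 in the Tyrobp single mutant, against 19.1 to 82 in the Inpp5d single mutant and 30.2 to 60 in NLGF. The 12 neuron markers summed to 40 CPM in compound replicate 1, where the other 10 libraries lay between 3.81 and 13.5. Compound replicate 1 is thus the library with most neuron RNA and also the Tyrobp-/- library whose neutrophil level lay within the range of the Tyrobp+ libraries. The 12 astrocyte markers summed to 233.2 to 275.8 CPM in the compound mutant, 232.4 and 268.1 in the Tyrobp single mutant, 178 to 273 in the Inpp5d single mutant and 226.2 to 253.4 in NLGF. Nearly all of this was Slc1a3 (163 to 262 CPM over all libraries), and the defining marker Aqp4 was at 0 in 7 of the 11 libraries. The summed levels of the remaining lists were 123 to 222, 210 and 227, 86 to 144 and 66.6 to 142 CPM for 10 border-associated macrophage markers in the compound mutant, the Tyrobp single mutant, the Inpp5d single mutant and NLGF. Oligodendrocyte markers lay between 165 and 208 CPM over all libraries, lymphocyte markers between 23.8 and 51.6, and markers of endothelium and mural cells between 7.71 and 35.3. Apart from the alternatives given below, the part of these cells in the results was not tested.

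**Figure D1:**
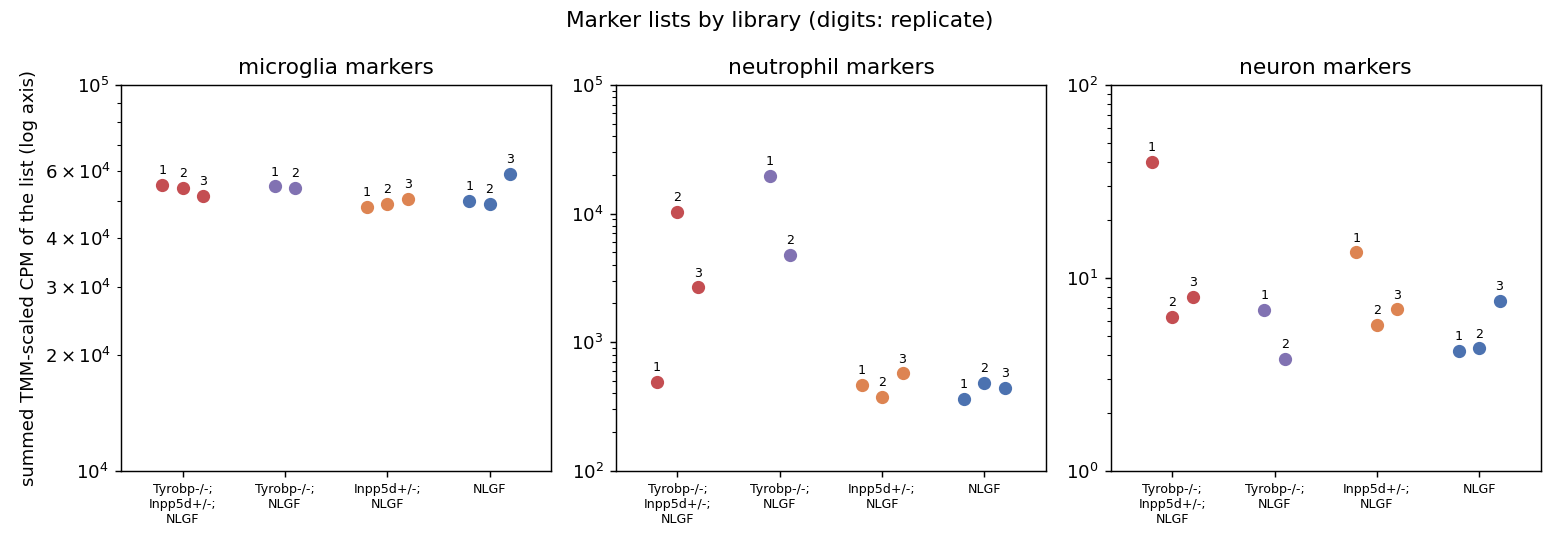
Summed TMM-scaled CPM of the marker lists for microglia, neutrophils and neurons (log axes) in each library, by genotype, with the replicate number above each point. Microglia markers sit between 48400 and 58760 CPM in all 11 libraries, while neutrophil markers reach 19560 CPM in Tyrobp-/-;NLGF replicate 1 and neuron markers 40 CPM in compound replicate 1.

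Mamdc2 was near 0 in the Tyrobp single mutant, low in the compound mutant and well detected in both Tyrobp+ groups. The gene (ENSMUSG00000033207.7) lies on the minus strand of chromosome 19, from 23302609 to 23448442 (GRCm38), and no exon of it overlaps another gene in the deposited table. Its level was 2.07, 6.51 and 5.19 CPM in compound replicates 1, 2 and 3, and 0.0996 and 0.074 CPM in the Tyrobp single mutant libraries. It was 80.9, 84 and 72.6 CPM in the Inpp5d single mutant and 96.6, 83.7 and 70.2 CPM in NLGF. All 3 compound libraries lay above both Tyrobp single mutant libraries, the lowest of them 20.8-fold above the highest of those, and all 5 Tyrobp-/- libraries lay far below the 6 others. The Tyrobp single mutant values rest on 5 and 4 reads, and the compound values on 110, 409 and 258. The compound mean was 52.9-fold that of the Tyrobp single mutant, yet it was 5.5% of the NLGF mean.

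Fzd9 was the only one of the 5 without a read in a group. The gene lies on the minus strand of chromosome 5 (ENSMUSG00000049551.2, 135248938 to 135251230), its exonic length of 2293 bases equals its span, and it encodes a seven-pass receptor that binds Wnt proteins. Compound replicates 1, 2 and 3 had 127, 131 and 66 reads (2.39, 2.09 and 1.33 CPM), while both Tyrobp single mutant libraries had 0 reads, where a floor of 3 reads corresponds to 0.0597 and 0.0555 CPM. The Inpp5d single mutant had 2.07, 2.13 and 3.8 CPM and NLGF 3.25, 6.74 and 3.66 CPM. The compound libraries overlapped those of the Inpp5d single mutant and lay below those of NLGF. The compound mean of 1.94 ± 0.548 CPM was at least 33.6-fold higher than the Tyrobp single mutant, against the floor of 3 counts per library averaged over its libraries.

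Serpine2 was the most abundant of the 5, also per length of transcript, at 229 ± 20.2 RPKM in the compound mutant and 320 ± 31.9 RPKM in NLGF (SD, n = 3 each). It encodes protease nexin-1, an inhibitor of thrombin and of plasminogen activators, and lies on the minus strand of chromosome 1 (ENSMUSG00000026249.10, 79794197 to 79861180). Its level was 1751, 1854 and 2079 CPM in the compound mutant and 1073 and 1089 CPM in the Tyrobp single mutant. The Inpp5d single mutant had 3305, 3373 and 3309 CPM and NLGF 2919, 2646 and 2391 CPM. The 4 genotypes formed 4 groups of libraries without overlap, from high to low the Inpp5d single mutant, NLGF, the compound mutant and the Tyrobp single mutant. Inpp5d lies on the same chromosome as Serpine2, from 87620312 to 87720507. Whether DNA linked to the inactive Inpp5d allele bears on the Serpine2 level was not tested.

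St8sia6 encodes a sialyltransferase of the family that joins sialic acids to each other. It lies on the minus strand of chromosome 2 (ENSMUSG00000003418.11, 13651021 to 13794064) and shares 112 exonic bases with the antisense gene Gm37126, which reached at most 8.93 CPM in any library; without strand, reads of the shared stretch cannot be told apart. Its level was 19.6, 18.3 and 39.7 CPM in the compound mutant, and 6.99 and 5.66 CPM in the Tyrobp single mutant. The Inpp5d single mutant had 103, 128 and 134 CPM and NLGF 149, 117 and 128 CPM. Compound replicate 3 was 2.17-fold above compound replicate 2, the lowest, and even the lowest stood 2.62-fold above the higher Tyrobp single mutant library.

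Tcirg1 encodes the a3 subunit of the membrane sector of the vacuolar proton pump, known from the bone-resorbing osteoclast. It lies on the minus strand of chromosome 19 (ENSMUSG00000001750.16, 3896050 to 3907133). Its level was 123, 127 and 123 CPM in the compound mutant, and 81.2 and 65.9 CPM in the Tyrobp single mutant. The Inpp5d single mutant had 136, 157 and 153 CPM and NLGF 128, 136 and 149 CPM. The compound libraries lay 1.03-fold apart, above both Tyrobp single mutant libraries and just below the lowest NLGF library.

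**Figure D2:**
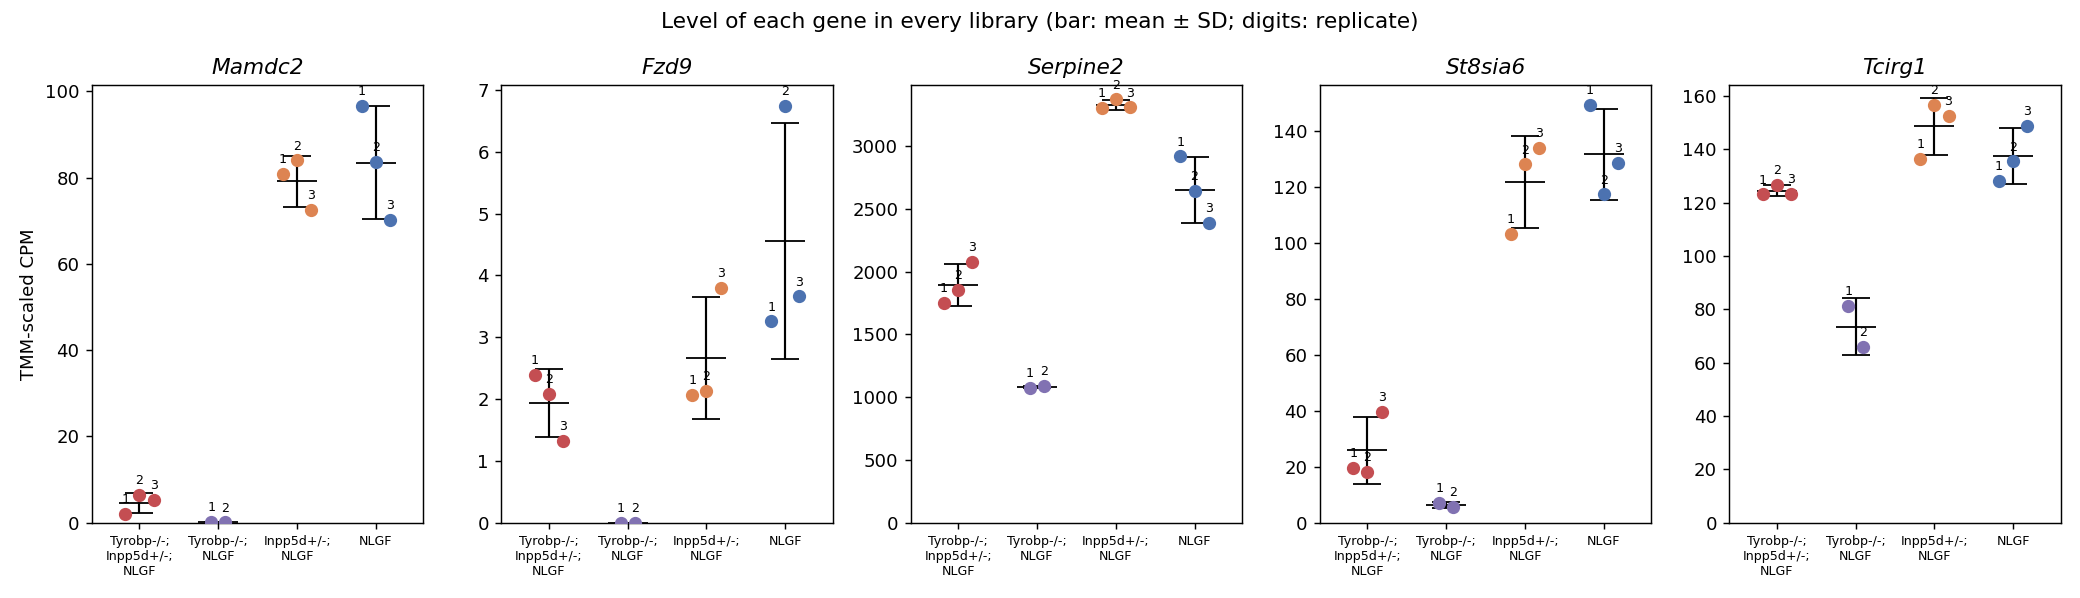
TMM-scaled CPM (linear axes from 0) of the 5 genes in each of the 11 libraries, by genotype; points are libraries with their replicate number, bars the mean ± SD. In every panel the 3 compound libraries lie above the 2 Tyrobp-/-;NLGF libraries, at levels that run from near 0 for Mamdc2 to just under NLGF for Tcirg1.

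Promoter windows of 300 bases (250 before and 50 from the transcription start, RefSeq, GRCm38.p6) were held for 4 of the 5 genes, 1 each for Fzd9, Serpine2 and St8sia6 and 3 for the alternative starts of Tcirg1. Those of Fzd9 and St8sia6, of these 4 the genes with the largest folds between the groups, and the Tcirg1 window with motif matches are shown, 5′ to 3′ on the minus strand, with matches to the motifs searched in capitals: chr5:135250998-135251297 for Fzd9, chr2:13793471-13793770 for St8sia6 and chr19:3906934-3907233 for Tcirg1.
Fzd9: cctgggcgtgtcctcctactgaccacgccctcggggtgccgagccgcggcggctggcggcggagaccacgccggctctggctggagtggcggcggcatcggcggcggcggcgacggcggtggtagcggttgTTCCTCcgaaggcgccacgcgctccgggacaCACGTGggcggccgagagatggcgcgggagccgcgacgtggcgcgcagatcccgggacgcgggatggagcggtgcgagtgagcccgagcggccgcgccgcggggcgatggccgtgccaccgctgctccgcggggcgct
St8sia6: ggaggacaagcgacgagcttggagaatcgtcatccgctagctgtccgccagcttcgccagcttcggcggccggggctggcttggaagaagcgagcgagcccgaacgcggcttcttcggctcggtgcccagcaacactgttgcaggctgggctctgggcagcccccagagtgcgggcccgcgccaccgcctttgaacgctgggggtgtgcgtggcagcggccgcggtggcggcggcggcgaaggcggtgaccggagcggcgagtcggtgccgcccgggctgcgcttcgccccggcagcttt
Tcirg1: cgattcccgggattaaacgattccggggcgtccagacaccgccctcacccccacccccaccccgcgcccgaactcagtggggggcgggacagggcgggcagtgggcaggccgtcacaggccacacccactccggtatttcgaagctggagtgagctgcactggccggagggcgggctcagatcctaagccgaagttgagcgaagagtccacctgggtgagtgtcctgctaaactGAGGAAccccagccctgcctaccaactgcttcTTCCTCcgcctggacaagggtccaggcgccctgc
In all, 3 motifs were searched on both strands: CACGTG (E-box), GAGGAA (the core bound by PU.1) and TGANTCA (AP-1). The Fzd9 window held 1 match to CACGTG and 1 to GAGGAA, and this Tcirg1 window held 2 to GAGGAA. The St8sia6 and Serpine2 windows and the other 2 of Tcirg1 held no match, and TGANTCA was in no window of these genes. Of all 32851 windows, 7.15% held CACGTG, 28.3% GAGGAA and 7.81% TGANTCA. The windows of Fzd9, Serpine2 and St8sia6 had a GC content of 78%, 77.7% and 72%, where the median window had 52.7%. These RefSeq starts differ from the deposited gene starts. They lay 183 bases inside the deposited gene for Fzd9, 2515 for Serpine2, 544 for St8sia6 and 150 for the Tcirg1 window shown. Both Fzd9 matches therefore fall within its counted exon.

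The extent of the shift was set on a common scale by placing each compound library between the Tyrobp single mutant mean (0%) and the NLGF mean (100%) in CPM. Tcirg1 stood highest, at 77.6%, 83.3% and 78% in compound replicates 1, 2 and 3. Serpine2 stood at 42.6%, 49.2% and 63.5%, and Fzd9 at 52.6%, 45.8% and 29.2%. St8sia6 stood at 10.6%, 9.55% and 26.6%, and Mamdc2 at 2.38%, 7.7% and 6.11%. Mamdc2 and St8sia6 lay nearest to the Tyrobp single mutant level on this scale. With library totals in place of TMM scaling the mean position of Tcirg1 was 84.5%, against 79.6% with it, and that of Serpine2 53.8%, against 51.8%.

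No single compound library was the highest throughout. Replicate 1 was highest for Fzd9 and lowest for Mamdc2, Serpine2 and Tcirg1. Replicate 2 was highest for Mamdc2 and Tcirg1, and replicate 3 was highest for Serpine2 and St8sia6. Compound replicate 1, with neutrophil markers at 493 CPM, had Mamdc2, Fzd9, Serpine2, St8sia6 and Tcirg1 above both Tyrobp single mutant libraries. Its neuron markers were the highest of all libraries, as was its Fzd9 among compound libraries. Compound replicates 2 and 3, with neuron markers at 6.27 and 7.94 CPM, had Fzd9 at 2.09 and 1.33 CPM. In the compound mutant, 13 of 14 neutrophil markers were lower and 11 of 11 tested neuron markers higher than in the Tyrobp single mutant. Whether neutrophil or neuron RNA bears on the difference between these groups in the 5 genes was not tested.

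**Figure D3:**
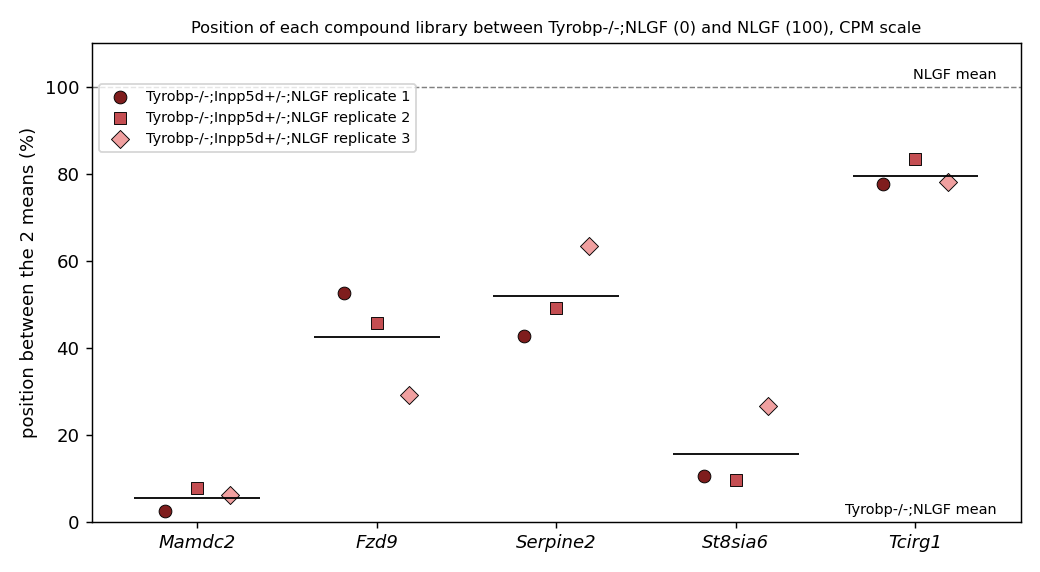
Position of each compound library (points, 1 shape per replicate) between the Tyrobp-/-;NLGF mean (0%) and the NLGF mean (100%) on the CPM scale, for the 5 genes; lines are the means. Means run from 5.4% for Mamdc2 to 79.6% for Tcirg1, and the shape on top changes from gene to gene.

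On the log2 scale, the difference between the compound mutant and the Tyrobp single mutant that chose the genes was 5.69 (standard error, SE, 0.59) for Mamdc2, 2.03 (SE 0.33) for St8sia6, 0.81 (SE 0.096) for Serpine2 and 0.76 (SE 0.12) for Tcirg1. All 5 genes had no overlap between the libraries of those groups, where 9.13% of all tested genes lay higher without overlap and 9.66% lower. As this contrast chose the genes, their excess over that share reflects the choice and is no separate result.

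The loss of Tyrobp on the Inpp5d+/- background was examined in the compound mutant against the Inpp5d single mutant. The compound libraries were among those that chose the genes, by high values, and a lower compound level runs against that part of the rule. The rule also favoured low values in the Tyrobp single mutant, which shares the loss of Tyrobp with the compound mutant. A low compound level is therefore not independent of the choice. The genes were also chosen with earlier results of these data known. Their counts beside those of all genes and their adjusted p values, here and against NLGF, are therefore a description. Mamdc2 and St8sia6 fell strongly and Serpine2 moderately, while Fzd9 and Tcirg1 did not pass. That is 3 of 5 genes lower and none higher, where edgeR's quasi-likelihood test with Benjamini-Hochberg adjustment over all 20390 genes called 0.633% lower and 0.265% higher. Mamdc2 averaged 4.59 ± 2.28 CPM in the compound mutant and 79.2 ± 5.91 in the Inpp5d single mutant (SD, n = 3 each), a log2 fold change of -4.11 (SE 0.37, edgeR adjusted p = 0.00139). St8sia6 averaged 25.9 ± 12 CPM in the compound mutant and 122 ± 16.3 in the Inpp5d single mutant (log2 fold change -2.24, SE 0.28, edgeR adjusted p = 0.00799). Serpine2 averaged 1894 ± 168 and 3329 ± 38.2 CPM in the compound mutant and the Inpp5d single mutant (log2 fold change -0.81, SE 0.084, edgeR adjusted p = 0.003).

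Tcirg1 averaged 124 ± 2.05 CPM in the compound mutant and 149 ± 10.8 in the Inpp5d single mutant without overlap, with a log2 fold change of -0.26 and a 95% interval from -0.50 to -0.01, and did not pass over all genes (edgeR adjusted p = 0.35). Fzd9 averaged 1.94 ± 0.548 and 2.67 ± 0.984 CPM in the compound mutant and in the Inpp5d single mutant, with a log2 fold change of -0.46 and an interval from -1.49 to 0.57 (edgeR adjusted p = 0.735). In all, 4 of the 5 genes lay lower without overlap and none higher, against 9.22% and 9.36% of all tested genes. The 3 calls held with each library left out in turn. The St8sia6 call was lost with the neutrophil marker mean as a covariate (log2 fold change -2.22, SE 0.4, edgeR adjusted p = 0.0909) and without the 2 libraries with most S100a8, a neutrophil transcript (-2.04, SE 0.3, edgeR adjusted p = 0.0555), while Mamdc2 and Serpine2 passed in both fits.

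Against NLGF, the compound mutant stayed lower in Mamdc2 and St8sia6, and Serpine2 passed narrowly. NLGF averaged 83.5 ± 13.2 CPM of Mamdc2 (compound log2 fold change -4.18, SE 0.37, edgeR adjusted p = 0.0013) and 132 ± 16.2 CPM of St8sia6 (-2.35, SE 0.29, edgeR adjusted p = 0.00674). For Serpine2 NLGF averaged 2652 ± 264 CPM (compound log2 fold change -0.49, SE 0.084, edgeR adjusted p = 0.0326). The Serpine2 call was lost in 15 of 22 alternatives, among them leaving out 9 of the 11 libraries in turn, with adjusted p up to 0.278, while its log2 fold change stayed between -0.56 and -0.36. The St8sia6 call against NLGF was lost in 3 of 22: with the neutrophil covariate (log2 fold change -2.33, edgeR adjusted p = 0.123), with the astrocyte covariate (-2.04, edgeR adjusted p = 0.0789) and in the fit of the compared groups only (-2.35, edgeR adjusted p = 0.053). Thus 3 of 5 genes were called lower, against 0.633% of all tested genes, with 0.24% called higher. All 5 lay lower than NLGF without overlap, against 8.92% of all tested genes, while 9.04% of those lay higher. The intervals for the genes that did not pass were -2.27 to -0.19 for Fzd9 (edgeR adjusted p = 0.306) and -0.39 to 0.10 for Tcirg1 (edgeR adjusted p = 0.64).

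The same loss with both Inpp5d alleles present shares no library with the comparison on the Inpp5d+/- background. Because the rule favoured low values in the Tyrobp single mutant, it is given without a test. The log2 fold change of the Tyrobp single mutant over NLGF was -9.88 (SE 0.63) for Mamdc2, -4.38 (SE 0.38) for St8sia6, -1.30 (SE 0.098) for Serpine2 and -0.90 (SE 0.12) for Tcirg1. Fzd9 was at least 79-fold lower, against the same floor. Each of these is larger in size than its counterpart on the Inpp5d+/- background. The difference between both comparisons contains the contrast that chose the genes and was not tested. All 5 genes lay below NLGF without overlap, where 14% of all tested genes did. The rule favoured such values, so this count is a description as well.

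**Figure D4:**
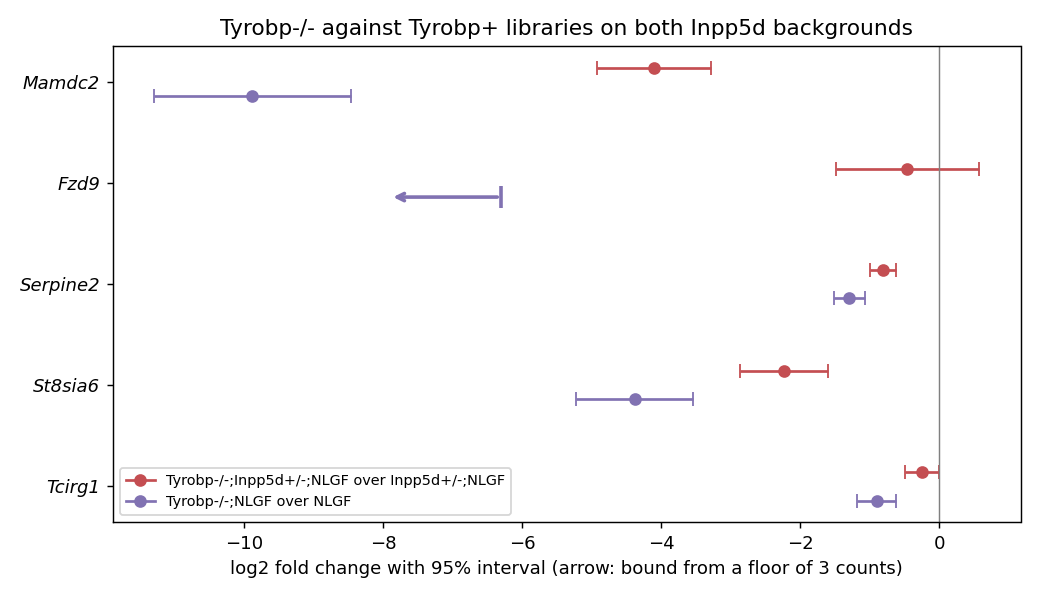
Fitted log2 fold change with 95% interval of Tyrobp-/-;Inpp5d+/-;NLGF over Inpp5d+/-;NLGF (red, upper of each pair) and of Tyrobp-/-;NLGF over NLGF (purple, lower), for the 5 genes; the arrow for Fzd9 starts at the bound from a floor of 3 counts. The red estimates lie nearer to 0 for each gene, from -0.26 for Tcirg1 to -4.11 for Mamdc2.

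The effect of the Inpp5d+/- genotype with Tyrobp present was examined in the Inpp5d single mutant against NLGF, the comparison that uses no library of the rule. None of the 5 genes passed, and none of 20390 did in edgeR (0%), where 951 (4.66%) had an unadjusted p below 0.05; limma-voom called 0 and DESeq2 29. Serpine2 was higher in all 3 Inpp5d single mutant libraries than in any NLGF library, with means of 3329 ± 38.2 and 2652 ± 264 CPM in these groups (log2 fold change 0.33, interval 0.14 to 0.52, edgeR adjusted p = 0.952). Of all tested genes 3.64% lay higher and 3.97% lower without overlap in this comparison. The libraries of the other 4 genes overlapped. The intervals of their log2 fold changes were -0.79 to 0.64 for Mamdc2, -1.81 to 0.26 for Fzd9, -0.72 to 0.49 for St8sia6 and -0.13 to 0.36 for Tcirg1. These intervals include 0 and are not adjusted for the number of genes, so differences up to their ends remain possible. They are not limits of detection, since Serpine2 did not pass although its interval left out 0.

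Whether relatives of the 5 genes in the same pathway or family moved with them was examined in 6 lists. Apart from the DAM genes, few passed. Of 20 tested genes of Wnt receptors and signal transducers other than Fzd9, none passed in the compound mutant against the Inpp5d single mutant, and their median log2 fold change was -0.09, where the median of all tested genes was 0.02. The smallest p values over the 3 tested comparisons were those of Znrf3, a ligase that removes Frizzled receptors (1.41 ± 0.727 CPM in the compound mutant and 3.3 ± 0.9 in the Inpp5d single mutant, edgeR adjusted p = 0.322), and Ryk, a Wnt co-receptor (8.62 ± 0.468 and 5.36 ± 3.1 CPM in the same 2 groups, edgeR adjusted p = 0.526). The smallest p of Ryk was for the Inpp5d single mutant against NLGF, which had 10.7 ± 3.6 CPM (log2 fold change -0.99, SE 0.43, edgeR adjusted p = 0.952). The Frizzled gene Fzd7 averaged 28.8 CPM in the compound mutant, 17.9 in the Tyrobp single mutant, 48.7 in the Inpp5d single mutant and 48 in NLGF, and did not pass against either Tyrobp+ group (edgeR adjusted p = 0.387 and 0.41); it was picked after its values were seen.

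Of 20 tested subunits and accessory proteins of the proton pump other than Tcirg1, none passed, with a median of -0.02 against the Inpp5d single mutant and -0.16 against NLGF. Atp6v0c, the proteolipid of the membrane ring, was at 605 ± 64.5 CPM in the compound mutant and 618 ± 6.1 in the Tyrobp single mutant, against 820 ± 74.8 in the Inpp5d single mutant and 828 ± 13.4 in NLGF (edgeR adjusted p = 0.068 and 0.0635 for the compound mutant against the last 2 groups). Atp6v1a, the catalytic subunit, was at 151 ± 15.8 and 179 ± 4.17 CPM in the compound mutant and the Tyrobp single mutant, against 193 ± 38.7 in the Inpp5d single mutant, and was highest in NLGF. Its smallest p was for the compound mutant against NLGF (log2 fold change -0.62, SE 0.16, edgeR adjusted p = 0.137), and against the Inpp5d single mutant the adjusted p was 0.375. The compound means of both lay below their means in the Tyrobp single mutant. Of the 20 subunits and accessory proteins, 14 had a positive and 6 a negative log2 difference between the compound mutant and the Tyrobp single mutant, with a median of 0.11, where the median of all tested genes was 0.01. The related a subunits Atp6v0a1 (121 CPM in the compound mutant, 99.3 in the Tyrobp single mutant, 149 in the Inpp5d single mutant and 136 in NLGF) and Atp6v0a2 (208, 188, 165 and 159 CPM in the same 4 groups) did not pass, and were likewise picked afterwards. So were 2 subunits with low levels and larger differences, Atp6v0d2 (0.283, 0.463, 5.65 and 9.42 CPM) and Atp6v0e2 (0.462, 0, 4.5 and 3.33 CPM), which did not pass either. Against the Inpp5d single mutant, 12 of the 20 had a negative and 8 a positive log2 fold change.

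Of 12 tested sialyltransferases other than St8sia6, none passed, with a median of 0.17 against the Inpp5d single mutant. St6gal1, which adds sialic acid to N-glycans, was at 78.6 ± 12.8 CPM in the compound mutant and 109 ± 2.03 in the Inpp5d single mutant (edgeR adjusted p = 0.147). St8sia1, the GD3 synthase, was at 10.1 ± 4.8 CPM in the compound mutant, 3.23 ± 0.44 in the Tyrobp single mutant, 4.52 ± 1.34 in the Inpp5d single mutant and 5.49 ± 0.651 in NLGF (edgeR adjusted p = 0.216 against the Inpp5d single mutant). Of 7 tested MAM domain genes other than Mamdc2, none passed, with a median of -0.26; Npnt, which encodes nephronectin, was at 40.3 ± 4.7 CPM in the compound mutant and 77.5 ± 11.4 in the Inpp5d single mutant (edgeR adjusted p = 0.0805), and Nrp1, a semaphorin and VEGF co-receptor, at 133 ± 46.7 and 267 ± 53.6 CPM (edgeR adjusted p = 0.186).

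Of 16 tested serpins and genes of the plasminogen and thrombin system other than Serpine2, 1 fell and none rose against the Inpp5d single mutant, with a median of 0.12. This was Plaur, the urokinase receptor, at 50.9 ± 14.5 CPM in the compound mutant and 116 ± 17.2 in the Inpp5d single mutant (log2 fold change -1.19, SE 0.23, edgeR adjusted p = 0.0482), close to the threshold. With 1 library left out, no gene of the 5 pathway and family lists other than the described genes was called in 8 of 11 fits. The Tyrobp single mutant had 64.8 ± 17.9 CPM of Plaur, so that its compound mean did not lie above that group. Serpinf1, a serpin without protease inhibition that is secreted, was at 32.7 ± 4.04 CPM in the compound mutant and 18.9 ± 2.51 in the Inpp5d single mutant (edgeR adjusted p = 0.0803).

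The 25 DAM stage 2 genes, which include Mamdc2 and Serpine2, were a contrast to these lists. Of the 23 others, 17 fell and none rose in the compound mutant against the Inpp5d single mutant, with a median of -2.37, and 17 fell against NLGF, with a median of -2.04. Between the compound mutant and the Tyrobp single mutant, 19 of these 23 had a positive and 4 a negative log2 difference. The median was 0.41, where that of all tested genes was 0.01. A compound mean above the Tyrobp single mutant was thus not particular to Mamdc2 and Serpine2 within this list. Spp1, which encodes osteopontin, was at 34.7 ± 9.29 CPM in the compound mutant and 13.7 ± 3.11 in the Tyrobp single mutant, against 587 ± 34.8 in the Inpp5d single mutant and 549 ± 83.7 in NLGF (compound against the Inpp5d single mutant log2 fold change -4.08, SE 0.22, edgeR adjusted p = 7.63e-05). Ank, a pyrophosphate transporter, was at 139 ± 37.6 and 81.7 ± 2.03 CPM in the compound mutant and the Tyrobp single mutant, against 920 ± 96.2 and 942 ± 89.6 in the Inpp5d single mutant and NLGF (edgeR adjusted p = 0.000303 against the Inpp5d single mutant). The count of 17 against the Inpp5d single mutant was 11 both with the neutrophil covariate and without the 2 libraries with most S100a8, and against NLGF it was 8 and 10 in these fits, 11 in the fit of the compared groups only and 9 with the astrocyte covariate.

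**Figure D5:**
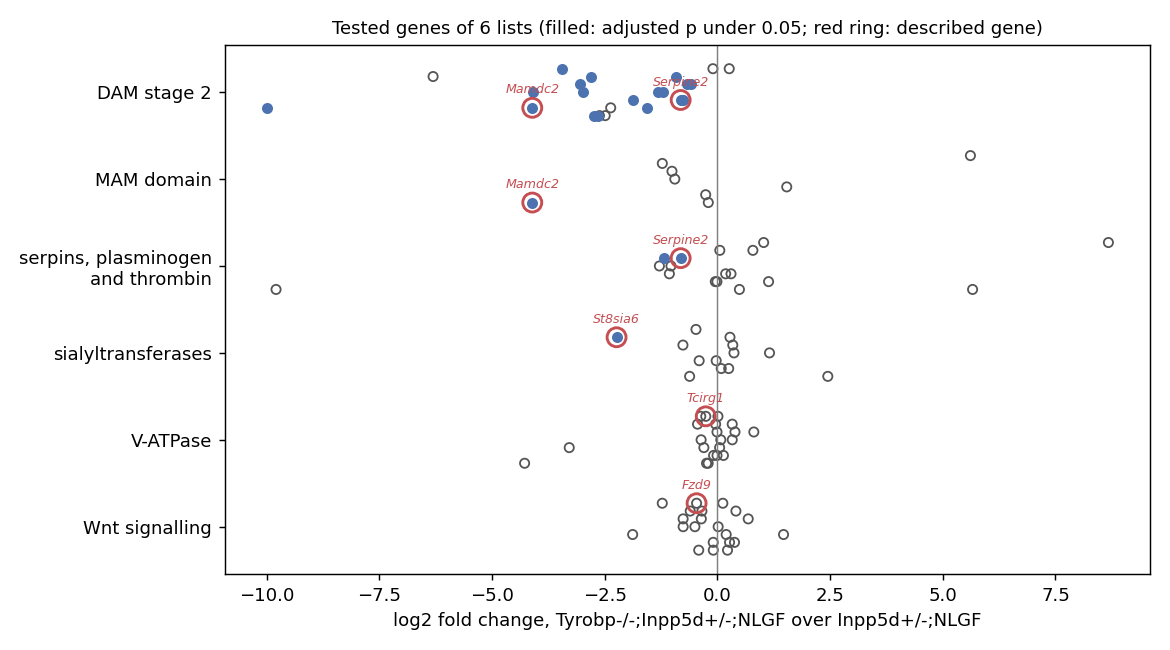
Fitted log2 fold change of Tyrobp-/-;Inpp5d+/-;NLGF over Inpp5d+/-;NLGF for the tested genes of 6 lists; filled points passed the adjusted p threshold of 0.05, red rings mark the 5 genes, and the vertical offset only separates points. Filled points cluster in the DAM stage 2 list (19 of 25 with Mamdc2 and Serpine2), and points far from 0 include genes without reads in a group, whose fitted size depends on the prior count.

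The genes most like each of the 5 were sought by the root mean square (RMS) difference, over the 11 libraries, between profiles of log2(CPM + 0.5) set to their own NLGF mean, among 9913 genes with at least 5 CPM in a genotype. For St8sia6 these were the lipoprotein lipase gene Lpl (RMS 0.314), Ank (0.425) and the cystatin gene Cst7 (0.435), where the median gene differed by 2.26. For Mamdc2 they were Spp1 (0.845), the lysyl oxidase gene Lox (0.988) and Lgi2 (1.07), against a median of 3.78. For Serpine2 they were the deubiquitinase gene Usp12 (0.2), the transcription factor gene Creb3l2 (0.209) and the chaperone gene Dnajb14 (0.223), against a median of 0.737. For Tcirg1 they were Mogs, a glucosidase of N-glycan processing (0.155), the ATP-gated channel gene P2rx4 (0.169) and Setd3 (0.174), against a median of 0.548. For Fzd9 they were Chic1 (0.556), Pdcd1, which encodes PD-1 (0.605), and the nicotinic acid receptor gene Hcar2 (0.629), against a median of 1.6.

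These neighbours in pattern show which levels go with each profile. Lpl averaged 62.9 ± 37.2 CPM in the compound mutant and 22.3 ± 4.18 in the Tyrobp single mutant, against 393 ± 69.3 in the Inpp5d single mutant and 335 ± 44 in NLGF. Pdcd1 averaged 76.1 ± 33 CPM in the compound mutant, 25.1 ± 4.79 in the Tyrobp single mutant, 147 ± 38.6 in the Inpp5d single mutant and 176 ± 32.4 in NLGF. P2rx4 averaged 154 ± 13.8, 121 ± 12.8, 193 ± 12.4 and 195 ± 21.1 CPM in the same 4 groups. With a pseudocount of 0.1 CPM the 3 genes were the same for Serpine2, St8sia6 and Tcirg1, while 2 of 3 were shared for Mamdc2 and 1 of 3 for Fzd9, the genes with values near 0.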

How the data were processed

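Per the labels' protocols, RNA of sorted cells was made into libraries with the SMART-Seq v4 kit, an unstranded method. The tools STAR 2.7.3a and featureCounts 1.6.4 and the builds GRCm38.p6 and mm10 are named in the submitters' processing notes. The authors deposited whole-number read counts per gene without normalisation, and the table gives the exonic length used here for RPKM. Not given in the sources used here are the annotation release, the strand setting and the treatment of multi-mapped reads.

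Groups come from the genotype label. Replicate numbers follow sample order and pair nothing. No pair of libraries held identical counts. Genes were kept with filterByExpr (minimum count 10, minimum total 15), which left 20390, and library sizes were scaled by TMM. A model with 1 coefficient per group over the 11 libraries was fitted with edgeR 4.0.16 in R 4.3.3 (glmQLFit, glmQLFTest). Adjusted p values are Benjamini-Hochberg values over all genes tested, with a threshold of 0.05; SEs and 95% intervals come from the same statistic. The procedure was tested on simulated data for the compound mutant against the Inpp5d single mutant only. Changes were placed only in genes above a minimum mean level, so genes as low as Fzd9 were not covered. A floor of 3 counts corresponded to 0.0477 to 0.1 CPM, and floors cover counting error only, because PCR copies were not marked.

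The 5 genes, the lists and the tests were chosen with earlier results of these data known. The text names the 5 genes and both targeted genes, up to 2 other genes per pathway list with the smallest p, and the 3 genes most similar in pattern to each of the 5. The alternatives were RLE, upper quartile and no TMM scaling, no filter, a stricter filter (1 CPM in 3 libraries), DESeq2 1.42.0, limma-voom 3.58.1, fits on the compared groups only, each library left out, both libraries with most S100a8 left out, and covariates for the neutrophil and astrocyte marker means.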

Additional observations from a re-analysis of the deposited data

How the results depend on the processing

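Mamdc2 was called in both comparisons of the compound mutant under all 22 alternatives, with log2 fold changes of -4.74 to -3.76 against the Inpp5d single mutant and -4.97 to -3.65 against NLGF. Serpine2 was called under all 22 against the Inpp5d single mutant (-0.89 to -0.76), and St8sia6 under 20 of 22 there and 19 of 22 against NLGF. Fzd9 and Tcirg1 passed under none. Against the Inpp5d single mutant, 3 genes were called in each fit that left out 1 library; against NLGF, 2 to 3. Against NLGF the count of 3 was 1 in the fit of the compared groups only and 1 with either covariate (neutrophil or astrocyte markers). For the Inpp5d single mutant against NLGF the count was 0 throughout, and log2 fold changes changed sign for Mamdc2 without NLGF replicate 1 (0.0415, where its range with a library left out was -0.18 to 0.0415) and with the astrocyte covariate (0.33), and for St8sia6 with that covariate (0.0746). All 5 genes kept the sign of both untested differences under every alternative listed here.

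The single call among other genes of the 5 pathway and family lists (Plaur) became 9 calls with DESeq2, 2 with limma-voom, 0 in the fit of the compared groups, 0 with either covariate, and 0 to 2 with a library left out. The totals of 183 and 178 genes called against the Inpp5d single mutant and NLGF were 1042 and 1008 with DESeq2, 104 and 56 in the fits of the compared groups, 45 and 35 with the neutrophil covariate, 100 and 28 with the astrocyte covariate, 50 and 64 without the 2 libraries with most S100a8, and 66 to 183 and 62 to 152 with a library left out. The cause of these changes was not tested. No paired analysis was possible because the labels give no number shared between groups. The Tyrobp single mutant had 2 libraries, and Fzd9 and Mamdc2 had 0 to 5 reads in each of them.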

Other observations

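The nearest tested protein-coding gene on each side of the 5 genes was also compared. Beside Mamdc2, Smc5 averaged 7.25 CPM in the compound mutant, 6.77 in the Tyrobp single mutant, 5.73 in the Inpp5d single mutant and 8.19 in NLGF. Beside Tcirg1, at a distance of 1681 bases, Chka averaged 72.2 CPM in the compound mutant, 68.2 in the Tyrobp single mutant, 65 in the Inpp5d single mutant and 44.7 in NLGF, and on the other side Ndufs8, at 1730 bases, averaged 125, 147, 126 and 122 CPM in the same 4 groups. Vim, the neighbour of St8sia6, encodes an intermediate filament protein. It averaged 24.3 CPM in the compound mutant, 48.8 in the Tyrobp single mutant, 13.5 in the Inpp5d single mutant and 14.4 in NLGF. Vim was highest in the group where St8sia6 was lowest and where neutrophil markers summed to 19560 and 4737 CPM. A relation between these levels was not tested. None of the 10 neighbouring genes passed in the compound mutant against the Inpp5d single mutant (lowest edgeR adjusted p = 0.259, for Nsun5 beside Fzd9). These genes were looked up after the values of the 5 were seen.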
